A study of Rattus norvegicus with 4 samples.

Results

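The D-type cyclins, the kinases they activate and the inhibitors of these kinases were examined in astrocytes cultured with or without neurons. The set held 10 genes, chosen by name from the 35731 genes on the array: the cyclins Ccnd1, Ccnd2 and Ccnd3, the kinases Cdk4 and Cdk6, the inhibitors Cdkn1a and Cdkn1b of the CIP/KIP family, and the inhibitors Cdkn2a, Cdkn2b and Cdkn2c of the INK4 family. All 10 genes had at least 1 probe, and all 14 of their probes passed the filter on dim probes, which 21360 genes passed in all. The set was put together because Ccnd2 was already known to be high in astrocytes from co-culture. For this reason the values of the 10 genes in that comparison are given as a description without a test. So are those of Ccnd2 wherever RNA of astrocytes alone is the reference.

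Astrocytes came from the cortex of newborn (P1) Wistar rats, and the neurons plated on them from the hippocampus of E18 mouse embryos, so that mouse mRNA was read by rat probes. Cold jet, in which ice-cold buffer is squirted over the well so that neurons come off and astrocytes stay, was given to co-cultures (CC-CJ) and to astrocytes alone (AA-CJ), whereas a further co-culture sample (CC) was taken without it. CC-CJ carried Cy3 on each of the 4 arrays, and its Cy5 partner was AA-CJ on 2 arrays and CC on the other two. M, the log2 ratio of Cy3 to Cy5, is thus positive where CC-CJ gave more signal. With no dye swap, an effect of the dye and one of the condition cannot be told apart in any ratio with CC-CJ, while CC and AA-CJ shared the dye Cy5. Per the methods, RNA of an array came from a few wells and the replicates from different pools of animals. Whether CC-CJ of the same replicate number was the same RNA on both kinds of array is not given. The 4 CC-CJ readings of a gene may thus come from only 2 RNAs. The precision is limited by the number of arrays, 2 for each comparison. For p-values, the spread within both comparisons was pooled over all 4 arrays and moderated in limma toward that of all genes. Such p-values measure a spread between arrays only.

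D-type cyclins are the regulatory subunits that switch on the kinases CDK4 and CDK6 when growth factors, adhesion or other outside signals reach a resting cell. The active kinases phosphorylate the retinoblastoma protein, which then releases E2F transcription factors and lets the cell pass from G1 into S phase. INK4 proteins bind the kinases themselves and keep cyclins off, whereas CIP/KIP proteins bind cyclin-kinase complexes and mainly block CDK2. In the brain, Ccnd2 is known for its part in the division of neural and glial precursors, and INK4 and CIP/KIP genes for cell-cycle exit and senescence of cultured glia.

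All 8 astrocyte markers, Gfap, Aqp4 and Slc1a2 among them, were well above background in each of the 3 kinds of RNA. Of 11 neuron markers with a probe, all were well above background in CC, 8 in CC-CJ and 7 in AA-CJ. Per channel, between 50.1% and 62.6% of all probes were well above background. The SD of M over all non-control probes, before the filter on dim probes, was between 0.198 and 0.268 per array. In the bulk RNA measured here, fewer cells of a type and less RNA per cell cannot be told apart.

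Ccnd2 had a low level in astrocytes alone and a high level in every co-culture sample, with or without cold jet. On the linear scale after normalization its level in AA-CJ was 476 and 538. In CC-CJ it was 3835 and 4211 on the same arrays, and 3896 and 4262 on the arrays shared with CC. In CC, before any cold jet, it was 4491 and 5406. The lowest co-culture value thus lay far above the higher of the AA-CJ values, and the CC range lay above the CC-CJ range. M values of CC-CJ versus AA-CJ were 3.01 and 2.97, a mean of 2.99 (SD 0.029, n = 2 arrays) or 7.94-fold. Only 1 of the 21360 genes tested had a larger mean M in that comparison. Between CC and AA-CJ, both in Cy5, the log2 difference was 3.26 (standard error 0.118), or 9.61-fold, the 13th largest. The next member was far behind: the gap between Ccnd2 and Ccnd1 in CC-CJ versus AA-CJ was 2.52 on the log2 scale, and that between Ccnd2 and Cdkn2b in CC versus AA-CJ was 2.83.

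**Figure D1:**
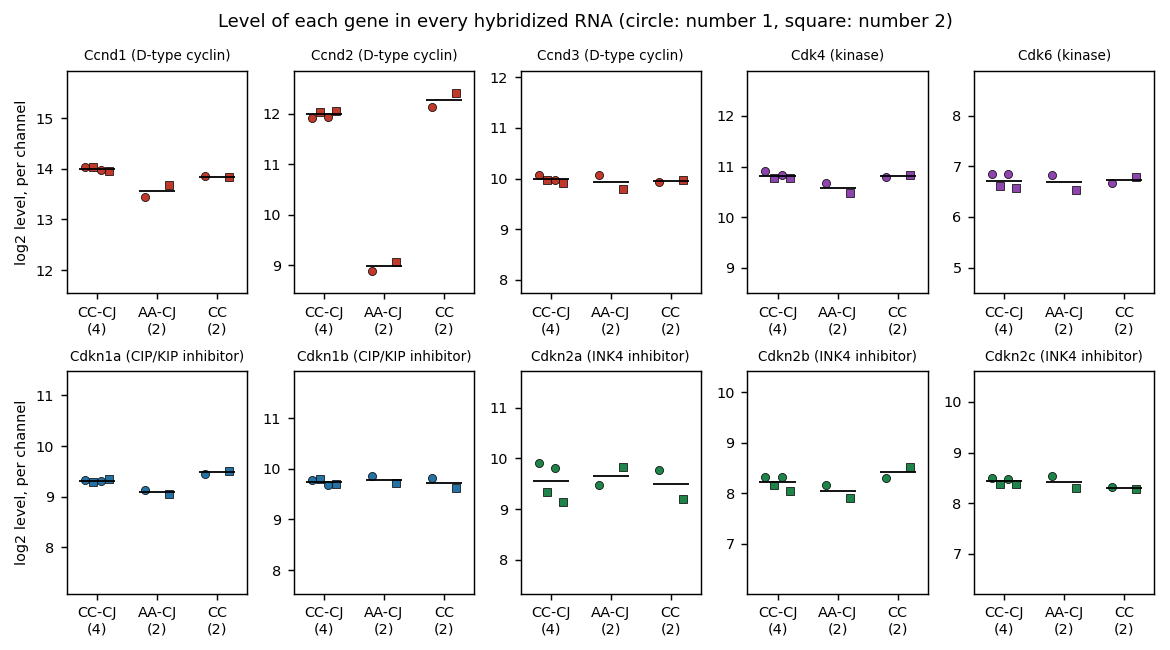
Log2 level per channel (y axis, each panel spanning the same number of log2 units) of the 10 genes in CC-CJ (4 hybridizations), AA-CJ (2) and CC (2), with circles for replicate number 1, squares for number 2 and a line at the mean. Ccnd2 is low in AA-CJ (476 and 538 on the linear scale) and high in the other RNAs, whereas the other 9 genes lie at a more similar height in all 3.

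The value of Ccnd2 rests on 1 probe with 1 spot per array, and its signal was well above background in all 8 channels. The files place it on chromosome 4 of rn4 from 163535032 to 163541856. This span of 6825 bases is longer than the 60 bases of most member probes, so that the probe matches the genome in separate blocks. No rn4 gene models were used here, so that positions within exons or UTRs are not stated for any member. It was not tested how well the rat probe binds mouse Ccnd2 mRNA.

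Most of the Ccnd2 signal was still present after cold jet. M values of CC-CJ versus CC were -0.21 and -0.34, so that CC-CJ was the lower on both arrays. The mean of -0.27 (standard error 0.083) had a 95% interval of -0.47 to -0.08 and an adjusted p of 0.18 in limma with Benjamini-Hochberg adjustment over all genes tested. After median centring of the arrays in place of loess the mean was -1.52, with the median of all genes at -0.59. Of 11 neuron markers tested, 7 passed as lower in CC-CJ compared with CC by the same fit and none was higher, where 2.27% and 0.0983% of all genes tested were. Their median log2 difference was -1.45, and 6 were higher in CC than in AA-CJ, as were 2.58% of all genes tested.

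To set these side by side, the AA-CJ level was subtracted from the levels of CC and CC-CJ, and the rest in CC-CJ was expressed as a share of that in CC. For Ccnd2 the share remaining after cold jet was 85.1% and 76.6% on the 2 arrays, a mean of 80.9% ± 5.97 (SD, n = 2). For the 6 neuron markers at least 2-fold higher in CC than in AA-CJ, mean shares were between 4.91% for Dcx and 14.0% for Tubb3. The microglia markers that met the same limit were the complement genes C1qa and C1qb and the adaptor Tyrobp, with 38.1%, 33.8% and 43.2%. Sox10 and Mag, of the oligodendrocyte lineage, met it too, with 8.12% and 23.0%. The other neuron and microglia markers tested did not meet it and have no share. In all, 354 genes were at least 2-fold higher in CC than in AA-CJ, with a median share of 26.3%. Ccnd2 was the only 1 of the 10 members among them, and 22 of the 354 genes (6.21%) had a share at or above its own. These genes were selected for their level in CC, so that the shares are a description. Ccnd2 itself was chosen for its high level in CC-CJ over AA-CJ, which enters the share. Its place among the 354 genes and beside the markers is thus no test. The share depends on the normalization: computed from the fitted log2 differences it was 80.7% for Ccnd2 after loess and 27.7% after median centring. The highest of the 6 neuron markers was then at 11.6% and 4.47%.

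**Figure D2:**
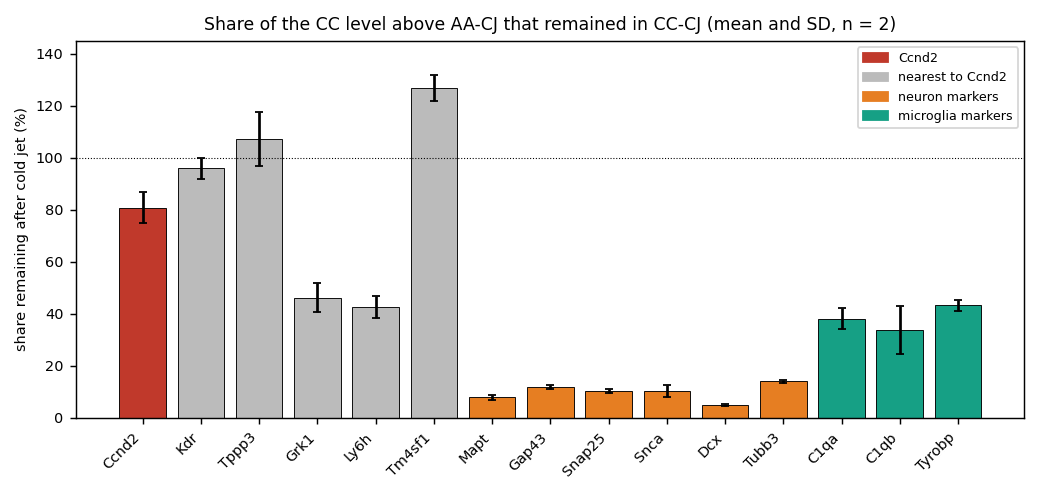
Share of the CC level above AA-CJ that remained in CC-CJ (y axis, percent, mean and SD over 2 arrays) for Ccnd2, for the 5 genes with the most similar M values, for 6 neuron markers and for 3 microglia markers. Ccnd2, chosen for its high CC-CJ level over AA-CJ, stands at 80.9%. The 6 neuron markers (4.91% to 14.0%) and 3 microglia markers (33.8% to 43.2%) are those at least 2-fold higher in CC than in AA-CJ.

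Markers of other cells were set beside Ccnd2. The summed level of 6 microglia markers was 809 to 925 in AA-CJ, 1134 to 1256 in CC-CJ on the same arrays, and 2229 to 2259 in CC. Of 8 microglia markers with a probe, 3 were well above background in AA-CJ, 4 in CC-CJ, where the rule is stricter, and 6 in CC. Itgam and Cx3cr1 were not in any. Of the 6 microglia markers tested, C1qa (1.19) and Tyrobp (0.77) passed in CC-CJ versus AA-CJ, and the other 4 did not. The summed level of the 11 neuron markers was 8730 to 9296 in AA-CJ and 8247 to 8634 in CC-CJ on the same arrays. In CC it was 18560 to 19381. Single neuron markers did not all follow this sum. In CC-CJ versus AA-CJ, Gap43 (2.03), Dcx (0.87) and Mapt (0.63) passed with positive mean M values. The other 8 neuron markers did not pass there, and 7 of the 11 were above 0, as were 46.4% of all genes tested. Neural progenitor markers, with 6 of 9 genes on the array, summed to 2703 to 2809 in AA-CJ, 3076 to 3398 in CC-CJ on the same arrays and 2911 to 3510 in CC, and none of the 6 passed in any comparison. Eomes, Sox2 and Tbr1 had no probe. Of the endothelial markers, Kdr was well above background in all RNAs, whereas Pecam1, Tek, Tie1, Flt1 and Cldn5 were not in any. The summed level of the 3 that were tested was 252 to 295 in AA-CJ and 728 to 826 in CC-CJ and CC. Kdr alone passed among them. The log2 differences of the other tested markers were 0.25 (Cdh5) and -0.03 (Vwf) in CC-CJ versus AA-CJ, and 0.10 and 0.05 in CC versus AA-CJ. The 9 markers of the oligodendrocyte lineage summed to 3178 to 3644 in AA-CJ, 3151 to 3235 in CC-CJ on the same arrays and 3587 to 4324 in CC. Sox10 and Mag, neither of them well above background on all arrays in CC-CJ, passed as lower in CC-CJ than in CC, and Mag passed as higher in CC than in AA-CJ. The 5 fibroblast markers summed to 58660 to 61649 in AA-CJ, 56720 to 59774 in CC-CJ on the same arrays and 64467 to 66541 in CC. Of these, Dcn (-0.77) and Col1a2 (-0.59) passed in CC-CJ versus CC, and Dcn (0.66) passed in CC versus AA-CJ. No marker of the oligodendrocyte lineage or of fibroblasts passed in CC-CJ versus AA-CJ. The part of these cells in the Ccnd2 signal was not tested.

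The genes whose 4 M values lay nearest to those of Ccnd2, by Euclidean distance over the 4 arrays, were Kdr, Tppp3, Grk1, Ly6h and Tm4sf1. Kdr, the receptor of VEGF on endothelial cells, lay nearest with a distance of 0.617, and had a mean M of 2.62 against AA-CJ and -0.05 against CC. Tppp3, a tubulin-binding protein, followed at 0.652, with mean M values of 2.76 and 0.08. Grk1, the kinase of rhodopsin, and Ly6h, a membrane-anchored protein of neurons, were at 1.26 and 1.40. Their M values against CC were lower than that of Ccnd2, with means of -0.97 and -1.10. Tm4sf1, a membrane protein of the tetraspanin-like kind, lay at 1.47 and had a mean M of 0.25 against CC. Shares remaining after cold jet were 95.9% for Kdr, 107% for Tppp3 and 127% for Tm4sf1, against 46.2% for Grk1 and 42.7% for Ly6h. As the genes were chosen by M values of the same arrays, these shares too are a description.

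**Figure D3:**
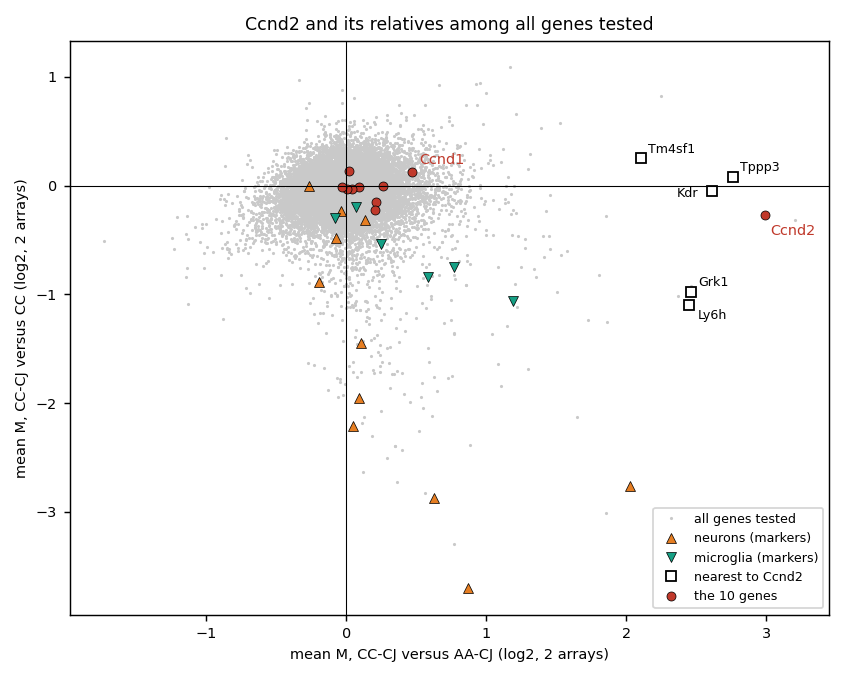
Mean M of CC-CJ versus AA-CJ (x axis, log2, 2 arrays) against mean M of CC-CJ versus CC (y axis, log2, the other 2 arrays) for the genes tested, with the 10 genes, neuron and microglia markers and the 5 genes nearest to Ccnd2 marked. Ccnd2 lies at 2.99 on the x axis and -0.27 on the y axis, apart from its relatives around 0 and from the neuron markers that reach down to -3.70.

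Ccnd1, the cyclin that growth factor signalling induces early in G1, had its highest levels in CC-CJ and its lowest in AA-CJ. Its level was 16727 and 16796 in CC-CJ against 11130 and 13098 in AA-CJ on the same arrays. On the other arrays it was 16218 and 15824 in CC-CJ against 14765 and 14548 in CC. The 4 CC-CJ values lay above both others, and CC lay above AA-CJ. M values against AA-CJ were 0.59 and 0.36, with a mean of 0.47, the second largest of the set. Against CC the M values were 0.14 and 0.12 (mean 0.13, standard error 0.09, adjusted p = 0.511 in limma). CC exceeded AA-CJ by 0.34 (standard error 0.127, 95% interval 0.04 to 0.65, adjusted p = 0.231 in limma).

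The probes of Ccnd1 did not give the same picture. The first (A_44_P189299, chromosome 1 of rn4, 205357582 to 205357641) had M values of 0.58 and 0.64 against AA-CJ. The second (A_44_P411505, 205359847 to 205359906) had 0.60 on array 1 and 0.07 on array 2. Between CC and AA-CJ the first probe differed by 0.63 (standard error 0.122, adjusted p = 0.0498 over all probes in limma) and the second by 0.06 (standard error 0.184, adjusted p = 0.898 in limma). A call for Ccnd1 in that comparison thus depends on the probe.

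Ccnd3, the D-type cyclin best known from blood cells, was at nearly the same level everywhere. It was 1081 and 999.7 in CC-CJ against 1078 and 882 in AA-CJ, and 999.7 and 966 in CC-CJ against 973 and 1007 in CC. The ranges of all 3 RNAs overlapped. Mean log2 differences were 0.09 against AA-CJ, -0.01 against CC (standard error 0.087, 95% interval -0.22 to 0.20, adjusted p = 0.964 in limma) and 0.10 between CC and AA-CJ (95% interval -0.19 to 0.40, adjusted p = 0.71 in limma). The files place its probe on chromosome 8 of rn4 (77073561 to 77073615), whereas the RefSeq annotation of the GRCr8 assembly has Ccnd3 on chromosome 9. For this reason the identity of the target is uncertain.

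**Figure D4:**
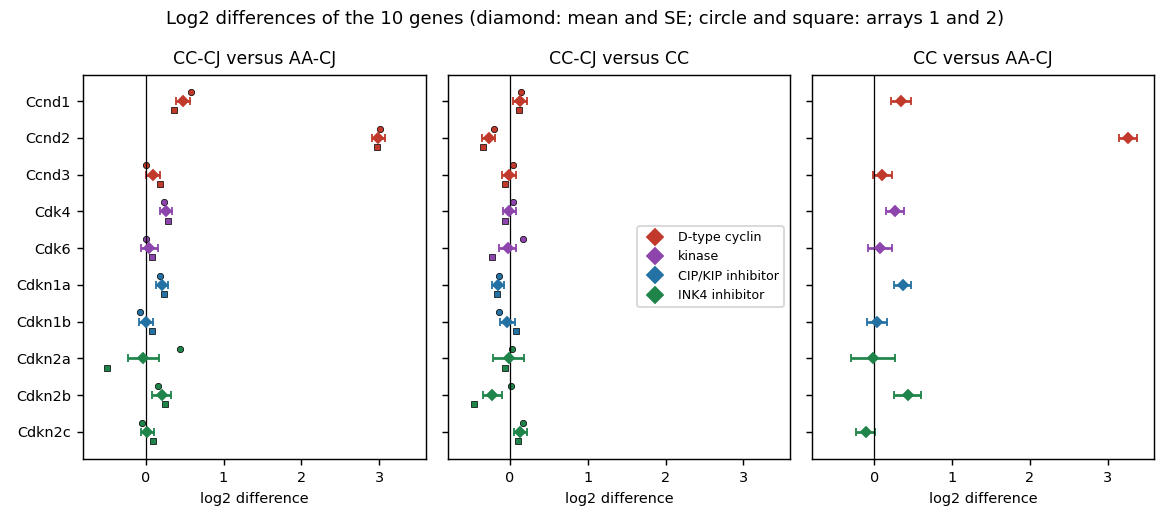
Log2 differences (x axis) of the 10 genes in CC-CJ versus AA-CJ, CC-CJ versus CC and CC versus AA-CJ, with diamonds and bars for the mean and its standard error in limma and circles and squares for the 2 arrays. Ccnd2 stands at 2.99 and 3.26 where AA-CJ is the reference, while the other means lie between -0.23 and 0.47 in all 3 comparisons.

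Cdk4, the kinase that the D-type cyclins activate in most tissues, had its lowest levels in AA-CJ. Its level was 1922 and 1744 in CC-CJ against 1632 and 1431 in AA-CJ on the same arrays. It was 1830 and 1745 in CC-CJ against 1774 and 1818 in CC. Both AA-CJ values lay below all the others. Mean M was 0.26 against AA-CJ. Against CC it was -0.007 (standard error 0.081, 95% interval -0.20 to 0.19, adjusted p = 0.974 in limma), and CC exceeded AA-CJ by 0.27 (standard error 0.115, 95% interval -0.01 to 0.54, adjusted p = 0.293 in limma). Of the probes on chromosome 7 of rn4, A_44_P388777 (67018124 to 67018271) gave 0.40 between CC and AA-CJ and A_44_P388782 (67017293 to 67017352) gave 0.14.

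Cdk6, the second kinase of D-type cyclins, was dim and did not differ beyond its spread. Its level was between 94.5 and 115 in CC-CJ, 93 and 114 in AA-CJ, and 102 and 111 in CC, so that all ranges overlapped. In CC-CJ it was not well above background on the array with CC replicate 2. M values against CC were 0.16 and -0.23 (mean -0.03, 95% interval -0.29 to 0.23, adjusted p = 0.909 in limma). The probe (A_44_P405071) lies on chromosome 4 of rn4 from 27553773 to 27553832.

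Cdkn1a, the inhibitor p21 that p53 induces after DNA damage, was highest in CC and lowest in AA-CJ. Its level, averaged over its probes, was 564 and 533 in AA-CJ, 628 to 651 in CC-CJ and 702 and 730 in CC, with no overlap between the 3 RNAs. Mean M was 0.21 against AA-CJ. The difference of CC-CJ from CC was -0.15 (standard error 0.079, adjusted p = 0.383 in limma) and that of CC from AA-CJ 0.36 (standard error 0.112, 95% interval 0.10 to 0.63, adjusted p = 0.168 in limma).

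This order came from 1 of the 2 Cdkn1a probes, A_44_P515275, read from 1 spot per array. Its log2 level was between 6.60 and 7.45, against 11.50 to 11.67 for the other, much brighter probe. Both were well above background in all channels, and the gene level is their mean on the log2 scale. The first, A_44_P515275 (chromosome 20 of rn4, 7385506 to 7385565) gave M values of -0.38 and -0.42 against CC, and CC exceeded AA-CJ by 0.71 (standard error 0.117, adjusted p = 0.0281 over all probes in limma). The second, A_44_P914438 (7386596 to 7386655), which was printed as 10 spots, gave M values of 0.10 and 0.09 against CC, and a difference of 0.02 between CC and AA-CJ (adjusted p = 0.954 in limma). The SD of M over its 10 spots was between 0.025 and 0.039 per array, less than the distance between the probes.

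**Figure D5:**
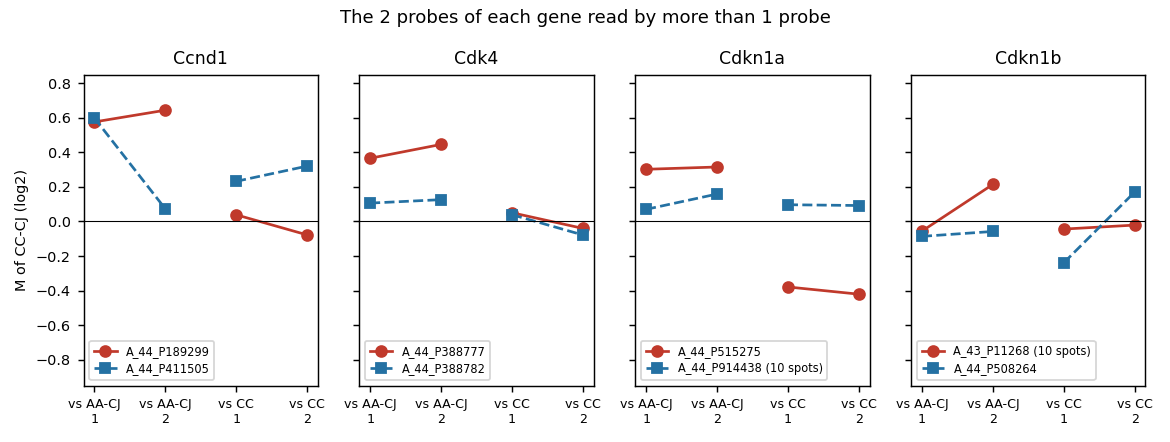
M of CC-CJ (y axis, log2) on the 4 arrays for both probes of Ccnd1, Cdk4, Cdkn1a and Cdkn1b, with 1 colour and symbol per probe. The probes of Cdkn1a lie on opposite sides of 0 against CC (-0.38 and -0.42 for one, 0.10 and 0.09 for the other), and those of Ccnd1 part on the second AA-CJ array (0.64 and 0.07).

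Cdkn1b, the inhibitor p27 of resting cells, was level across the samples. It was 823 to 892 in CC-CJ, 845 and 922 in AA-CJ and 786 and 908 in CC, and these ranges overlapped. Mean log2 differences were 0.004 against AA-CJ, -0.03 against CC (standard error 0.093, 95% interval -0.26 to 0.19, adjusted p = 0.887 in limma) and 0.04 between CC and AA-CJ (95% interval -0.28 to 0.35, adjusted p = 0.914 in limma). The 10 spots of A_43_P11268 (chromosome 4, 171846350 to 171846409) had an SD of M between 0.027 and 0.042 per array. Their mean M values against AA-CJ were -0.06 and 0.21, so that the arrays differed by more than the spots within an array. The second probe, A_44_P508264, lies from 171845435 to 171845494.

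Cdkn2a, whose locus encodes p16 as well as the p53 activator ARF, differed more between the arrays of CC-CJ versus AA-CJ than any other member. Its level in CC-CJ was 966 and 897 on the arrays with number 1, and 644 and 564 on those with number 2. In CC it was 878 for number 1 and 588 for number 2, while in AA-CJ it was 710 and 912. The co-culture RNAs of number 1 were thus high and those of number 2 low, and AA-CJ ran the other way. M values against AA-CJ were 0.44 and -0.50, of opposite sign, with an SD of 0.67. Against CC they were 0.03 and -0.06 (mean -0.02, standard error 0.2, 95% interval -0.49 to 0.46, adjusted p = 0.977 in limma). Between CC and AA-CJ the difference was -0.01 (95% interval -0.69 to 0.66, adjusted p = 0.987 in limma), and this interval leaves room for changes in either direction. The probe (A_44_P395885) is on chromosome 5 of rn4 from 108910800 to 108910859. It was not tested which transcripts of the locus it reads.

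Cdkn2b, which encodes p15 and is a known target of TGF-beta, lies beside Cdkn2a, with a probe from 108941425 to 108941484. Its level was 286 and 241 in AA-CJ, 265 to 320 in CC-CJ, and 316 and 367 in CC. CC lay above AA-CJ, and CC-CJ overlapped with both. M values against CC were 0.02 and -0.47 (mean -0.23, standard error 0.123, adjusted p = 0.404 in limma), so that only the second array was clearly below 0. CC exceeded AA-CJ by 0.43 (standard error 0.174, 95% interval 0.02 to 0.85, adjusted p = 0.267 in limma). This difference was 0.19 without CC replicate 2 and 0.67 without CC replicate 1.

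Cdkn2c, which encodes p18 and is known from precursors that leave the cell cycle, was 333 to 360 in CC-CJ, 315 and 373 in AA-CJ, and 319 and 311 in CC. The CC-CJ values lay above those of CC, while AA-CJ overlapped with both CC-CJ and CC. M values against CC were 0.16 and 0.10 (mean 0.13, standard error 0.084, 95% interval -0.07 to 0.33, adjusted p = 0.468 in limma). Between CC and AA-CJ the log2 difference was -0.11 (95% interval -0.39 to 0.17, adjusted p = 0.665 in limma). Its probe lies on chromosome 5 from 131013102 to 131013161.

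Counted over the set, 2 of 10 genes, Ccnd1 and Ccnd2, had an adjusted p under 0.05 in CC-CJ versus AA-CJ, where 3.1% of all genes tested did (1.94% higher, 1.16% lower). As Ccnd2 led to the choice of the set, nothing is read from this count. Without either of the arrays with AA-CJ, Ccnd2 alone was left. In CC-CJ versus CC, none of the 10 passed in limma and 2.36% of all genes did. At an unadjusted p under 0.05 there was 1, Ccnd2, as against 17.0% of all genes. In CC versus AA-CJ, none of the 9 relatives of Ccnd2 passed in limma, and 2.66% of all genes tested did, nearly all of them higher in CC (2.58% against 0.0796%). At an unadjusted p under 0.05 there were 3 of the 9 (Ccnd1, Cdkn1a and Cdkn2b), as against 17.8% of all genes. With the brightest probe of each gene in place of the mean, Ccnd1 passed there too, at 0.63 and an adjusted p of 0.0471 in limma. The median log2 difference of the 9 relatives was 0.09 in CC-CJ versus AA-CJ, -0.02 in CC-CJ versus CC and 0.10 in CC versus AA-CJ. Over all genes tested it was -0.02, -0.02 and 0.002. These directions depend on the loess step in both comparisons with CC-CJ: after median centring, which moved the median of all genes to -0.49 and -0.59, 9 of the 10 members passed in each, as did 62.0% and 67.1% of all genes tested, and Ccnd2 against AA-CJ (1.83) was the only 1 of the members above 0. The difference of Ccnd2 between CC and AA-CJ was 3.35 after median centring.

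The other genes of the pathway were counted in the same way. A list of 45 genes around the D-type cyclins had 30 genes tested: 6 of the RB and E2F families, 10 of cyclin E, CDK2, their activators and further inhibitors, 6 that turn over cyclins and inhibitors, and 8 transcription factors upstream of D-type cyclins. None of the 30 passed in limma in CC-CJ versus AA-CJ, where their median log2 difference was -0.006. In CC-CJ versus CC and in CC versus AA-CJ, 1 of the 30 passed, and it was the same. As 3.1%, 2.36% and 2.66% of all genes tested passed in these comparisons, such counts are near the background and say nothing particular to the pathway. Cdkn2d, which encodes the INK4 protein p19 known from neurons that have left the cell cycle, had M values of -0.58 and -0.76 against CC. Its mean of -0.67 (standard error 0.086) had an adjusted p of 0.0113 in limma, and CC exceeded AA-CJ by 0.65 (standard error 0.122, adjusted p = 0.0477 in limma). Against CC it did not pass without CC replicate 2 (-0.58, adjusted p = 0.153 in limma), and between CC and AA-CJ it did not pass without any 1 of the 4 arrays, with differences between 0.56 and 0.75. M of Cdkn2d against AA-CJ was -0.01 and -0.02. Ccnd2 thus had a difference of 2.99 where Cdkn2d had -0.02, and -0.27 where Cdkn2d had -0.67.

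A second list held genes of S phase and mitosis, which E2F factors are known to induce, and 10 of its 11 genes were tested. None of the 10 passed in limma in any comparison, which with 3.1%, 2.36% and 2.66% of all genes passing says nothing particular to a list of this size. Their median log2 difference was 0.09 in CC-CJ versus AA-CJ, -0.18 in CC-CJ versus CC and 0.27 in CC versus AA-CJ. In CC versus AA-CJ all 10 were above 0, as were 50.3% of all genes tested, whose median was 0.002. Their summed level was 2695 to 3409 in AA-CJ, 3442 to 3545 in CC-CJ and 3729 to 3754 in CC.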

How the data were processed

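The 4 arrays were Agilent whole rat genome arrays read in 2 colours. The authors deposited spot intensities written by Feature Extraction 9.5.1.1, with Agilent's log10 ratio of Cy5 over Cy3 beside them. Their own normalized values (OLIN and OSLIN) were deposited as a table of log2 ratios. Set against the scanner values, these proved to run as Cy5 over Cy3. Column medians were between -0.0247 and 0.00847. Both deposited ratios were turned to Cy3 over Cy5 and used as alternatives, and the turned table had a correlation with M of 0.9 to 0.952 per array, across probes.

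The software was limma 3.58.1 under R 4.3.3. Background was corrected by normexp (offset 50) on the mean signals, followed by loess (span 0.3) on the intensity for each array separately. Control spots and those marked as outliers (121 to 179 on each array) did not enter. The filter on dim probes asked for a signal well above background in all channels of 1 or more kinds of RNA, which 24856 of 41012 probes met. A gene is the mean of its kept probes, 10835 of all probes being named through RefSeq accessions and the rest by the files. Levels are per channel after loess and Aquantile. All 4 arrays entered lmFit with 1 coefficient per comparison, then eBayes, with Benjamini-Hochberg adjustment over 21360 genes. CC versus AA-CJ is the difference of the coefficients. The steps were tested on simulated data.

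Arrays with the same replicate number were not taken as pairs, since the deviations of the arrays from the means of their comparisons had a correlation of -0.112 with 2 numbers. The arrays lay on 1 slide. The members and the lists were chosen with earlier results of these data known. Named are the members, genes of the pathway list past an adjusted p of 0.05, markers, and the 5 genes nearest to Ccnd2. Alternatives were other offsets, normalizations, filters, probes, priors and arrays. No sequences were used. After the data were seen, the crossed pairing and the alternatives for Cdkn2d and for the share of Ccnd2 were added.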

Additional observations from a re-analysis of the deposited data

How the results depend on the processing

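The values of Ccnd2 with AA-CJ as reference are given without a test, since they led to the choice of the set. Its mean M against AA-CJ was 3.09 with an offset of 16, 3.15 from Agilent's log ratio, 2.93 from the authors' table and 1.83 after median centring. Between CC and AA-CJ it was 3.35 with an offset of 16, 3.47, 3.17 and 3.35 under the same alternatives, and 3.19 to 3.33 with 1 array left out. Against CC it was -1.52 after median centring and passed there (adjusted p = 7.23e-05 in limma), while the other alternatives gave adjusted p-values between 0.153 and 0.939, the last without CC replicate 2.

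Median centring of each array, in place of loess, moved the median of all genes to -0.49 in CC-CJ versus AA-CJ and -0.59 in CC-CJ versus CC, and with it most members. Against AA-CJ it turned Ccnd1 to -1.09, Ccnd3 to -1.004, Cdk4 to -0.93, Cdkn1a to -0.51, Cdkn1b to -1.05, Cdkn2b to -0.54 and Cdkn2c to -0.80. Against CC it turned Ccnd1 to -1.25 and Cdkn2c to -0.74. In each of these comparisons 9 members then passed, as did 62.0% and 67.1% of all genes. Between CC and AA-CJ, of the same dye, the median of all genes was -0.013. Direction was compared only where a value passed with either setting. The share of Ccnd2 remaining after cold jet was 27.7% after median centring, and between 76.5% and 85.1% under the other alternatives.

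The number of genes that passed in CC-CJ versus AA-CJ, 662 as reported, was 336 with an offset of 16, 77 from Agilent's log ratio, 13235 after median centring, 1051 with a regression on intensity and location, 1123 from the arrays of that comparison alone, and 123 to 1123 with 1 array left out (123 without AA-CJ replicate 1). In CC-CJ versus CC, 505 became 274 from Agilent's log ratio, 14336 after median centring, 290 among probes well above background on all arrays, and 206 to 690 with 1 array left out (206 without CC replicate 2). In CC versus AA-CJ, 568 became 250 from Agilent's log ratio, 348 among probes well above background on all arrays, and 357 to 658 with 1 array left out (357 without CC replicate 2). With a replicate block, 166, 303 and 291 genes passed in these comparisons, and with the numbers crossed, a pairing added after seeing the data, 1468, 840 and 825. Of the calls in CC-CJ versus AA-CJ, 62.7% were higher, against 77.1% with an offset of 16, 89.6% from Agilent's log ratio and 5.35% after median centring. In CC-CJ versus CC this was 4.16%, against 22.1% from the authors' table and 16.3% with the regression, which gave 86.5% against 97.0% in CC versus AA-CJ.

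Of the members, 1 passed in CC-CJ versus AA-CJ in place of 2 with an offset of 16, without background correction, from Agilent's log ratio, from the authors' table and with the replicate block. Nothing is read from counts that include Ccnd2, which led to the choice of the set. With the brightest probe, 2 in place of 1 passed in CC versus AA-CJ. Cdkn2d lost its call against CC only from Agilent's log ratio (adjusted p = 0.132 in limma) and without CC replicate 2. In CC versus AA-CJ it passed without background correction, without the filter and with the brightest probe, and otherwise had adjusted p-values between 0.0579 and 0.235 in limma. Depth cannot be read from arrays, and Cdk6 was the only member not well above background in a channel of an array.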
